A study of Mus musculus with 31 samples.

Results

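The genes described here are 40 genes of cell proliferation, chosen by name: 15 that copy DNA or supply its building blocks, 6 that drive the G1 phase and its exit, and 19 that carry out or control mitosis. All 40 were found among the 55487 genes of the deposited table, and all 40 were among the 19268 genes with enough reads to be tested. Bulk RNA-seq was done on whole kidneys from male B6-background mice, each library from its own animal, in 4 groups: Nbl1 HET mice given cisplatin (n = 8), Nbl1 WT mice given cisplatin (n = 8), Nbl1 HET mice given PBS (n = 7) and Nbl1 WT mice given PBS (n = 8). Nbl1 codes for an extracellular inhibitor of BMP ligands, HET and WT are the genotypes as labelled, and cisplatin is a platinum drug that crosslinks DNA and injures the kidney tubule. Treatment ran over 4 consecutive weeks from 8 weeks of age, and kidneys were taken 3 days after treatment, at a stated age of 11 weeks. The sources used here do not state the kind of Nbl1 allele, the cisplatin dose or the days of dosing.

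A cell that divides first loads the MCM helicase on its replication origins, then fires those origins with Cdc45 and the GINS complex, while ribonucleotide reductase and thymidylate synthase supply deoxynucleotides. D and E cyclins with their kinases release the E2F factors that switch on these S phase genes, and later B-Myb and Foxm1 switch on the genes of mitosis through a promoter element called the CHR. In kidney, tubule cells divide rarely when healthy, and injured tubule cells can re-enter the cell cycle or stop within it.

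The total count per library was 26868909 to 31914893 in HET cisplatin, 24650729 to 28862597 in WT cisplatin, 29231734 to 36695891 in HET PBS and 29845442 to 37301061 in WT PBS, so cisplatin libraries tended to be shallower. Treatment separated the libraries on the first principal component, which carried 73.5% of the variance. HET cisplatin 6, at -15.85, and WT cisplatin 6, at -25.25, lay nearest to the PBS libraries on it, while the other cisplatin libraries lay between -78.87 and -42.95 and PBS libraries between 51.81 and 62.63. Nbl1 itself had 0.86 to 13.9 CPM (counts scaled to each library's size) in HET cisplatin, against 10.7 to 26.2 CPM in WT cisplatin, and 0.11 to 4.20 CPM in HET PBS, against 3.71 to 7.90 CPM in WT PBS. The libraries labelled HET PBS 1 and 6 and HET cisplatin 3 and 4 had almost no Nbl1 (0.11 to 1.08 CPM), and the library labelled WT PBS 6 had 3.71 CPM, within the HET PBS range. These 5 libraries, listed from earlier results of these data, are called the 5 libraries in doubt. The genotypes also overlapped under cisplatin, where the library labelled WT cisplatin 6 (10.7 CPM) lay below HET cisplatin 7 and 8 (10.8 and 13.9 CPM), and these 3 are not among the 5. Kidney tubule markers were present throughout: 8 proximal tubule genes summed to 1052 to 5612 CPM in HET cisplatin and 1094 to 6069 CPM in WT cisplatin, against 14594 to 17159 CPM in HET PBS and 15050 to 17496 CPM in WT PBS.

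To show which cell cycle elements the upstream sequences carry, 300 bases around the start site (250 before it and 50 after it) are printed for the 3 replication and the 3 mitosis genes with the smallest p under cisplatin in WT that had an entry in the RefSeq table, build GRCm38.p6. They read 5′ to 3′ on the gene's own strand, and capitals mark matches, on either strand, to the CHR (TTTGAA or TTCGAA), to the E2F site (TTTGGCGC, TTTCGCGC, TTTCCCGC or TTTGCCGC) or to the CCAAT box.
Rrm1, chr7:102441445-102441744, plus strand: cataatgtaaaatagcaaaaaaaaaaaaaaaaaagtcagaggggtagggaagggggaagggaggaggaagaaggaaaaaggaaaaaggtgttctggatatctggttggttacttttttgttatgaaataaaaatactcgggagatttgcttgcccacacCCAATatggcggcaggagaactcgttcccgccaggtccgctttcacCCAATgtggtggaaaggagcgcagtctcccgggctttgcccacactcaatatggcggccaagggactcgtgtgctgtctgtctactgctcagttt
Rrm2, chr12:24708004-24708303, plus strand: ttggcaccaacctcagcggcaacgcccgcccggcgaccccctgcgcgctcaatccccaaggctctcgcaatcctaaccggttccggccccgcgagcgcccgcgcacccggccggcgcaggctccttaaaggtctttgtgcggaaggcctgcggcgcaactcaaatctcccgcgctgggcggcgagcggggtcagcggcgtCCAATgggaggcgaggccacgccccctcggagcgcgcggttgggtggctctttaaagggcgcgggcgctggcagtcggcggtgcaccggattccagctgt
Mcm6, chr1:128359656-128359955, minus strand: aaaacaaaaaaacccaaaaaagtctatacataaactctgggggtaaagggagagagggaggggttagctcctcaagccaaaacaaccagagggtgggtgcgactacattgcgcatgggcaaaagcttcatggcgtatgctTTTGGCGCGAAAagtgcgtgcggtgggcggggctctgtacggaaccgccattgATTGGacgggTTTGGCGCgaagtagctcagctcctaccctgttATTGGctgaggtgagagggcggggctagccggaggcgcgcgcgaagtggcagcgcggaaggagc
Kif23, chr9:61946750-61947049, minus strand: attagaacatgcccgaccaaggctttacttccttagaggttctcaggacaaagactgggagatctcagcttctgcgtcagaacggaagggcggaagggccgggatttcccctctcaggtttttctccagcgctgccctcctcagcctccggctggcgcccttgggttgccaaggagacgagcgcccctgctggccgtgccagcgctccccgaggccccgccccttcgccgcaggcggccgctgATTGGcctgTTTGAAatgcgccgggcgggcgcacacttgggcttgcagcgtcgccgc
Aurka, chr2:172370521-172370820, minus strand: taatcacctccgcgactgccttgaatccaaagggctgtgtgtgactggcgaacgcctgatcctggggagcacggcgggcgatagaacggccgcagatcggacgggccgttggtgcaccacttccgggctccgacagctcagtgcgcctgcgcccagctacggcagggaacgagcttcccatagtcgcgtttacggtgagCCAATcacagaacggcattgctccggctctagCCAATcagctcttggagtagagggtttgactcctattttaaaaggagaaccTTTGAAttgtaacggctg
Kif11, chr19:37376132-37376431, plus strand: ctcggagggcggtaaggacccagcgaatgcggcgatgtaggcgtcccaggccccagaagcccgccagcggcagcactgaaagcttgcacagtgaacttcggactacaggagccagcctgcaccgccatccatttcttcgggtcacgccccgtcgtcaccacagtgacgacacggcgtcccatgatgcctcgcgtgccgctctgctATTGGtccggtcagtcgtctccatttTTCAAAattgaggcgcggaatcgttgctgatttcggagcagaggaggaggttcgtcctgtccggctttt

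The 3 mitosis windows each held a CHR match, at bases 3 to 8 after the start site in Kif23, at bases 33 to 38 after it in Aurka, and at -19 to -14 in Kif11. The Mcm6 window held 3 E2F matches, of which those at -110 to -103 and -106 to -99 overlapped, whereas the Rrm1 and Rrm2 windows held CCAAT boxes and none of the CHR or E2F letters searched. RefSeq promoters were found for 30 of the 40 genes, 12 of 15 in replication, 3 of 6 in G1 and 15 of 19 in mitosis. A gene was counted as matched if any of its promoters matched, and Mcm7 and Ccnd3 had more than 1. The shares of all promoters count each promoter by itself, so the units differ. A CHR match stood at 12 of 15 mitosis genes (80%), 3 of 12 replication genes (25%) and 0 of 3 G1 genes, against 19.2% of all 32851 promoters in the table. An E2F match stood at 6 of 12 replication genes (50%), namely Cdc6, Cdt1, Mcm3, Mcm5, Mcm6 and Mcm7, and also at Cdk2 and Cdk1, so at 1 of 3 G1 genes (33.3%) and 1 of 15 mitosis genes (6.67%), against 2.26% of all promoters. The CCAAT box was at 14 of 15 mitosis genes (93.3%), 9 of 12 replication genes (75.0%) and 2 of 3 G1 genes (66.7%), against 37.4% of all promoters. These matches describe letters in one window and are not measured binding sites. No RefSeq promoter was found for Gins2, Mcm4, Gins1, Ccnd1, Ccnd2, Ccne2, Foxm1, Ccna2, Aurkb or Tpx2.

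Of the genes called under cisplatin, 7 of 13 in HET and 8 of 14 in WT were replication genes. In HET kidneys 10 of the 40 genes rose and 3 fell at an adjusted p under 0.05 (edgeR quasi-likelihood test, Benjamini-Hochberg over all genes), and in WT kidneys 12 rose and 2 fell. Cisplatin changed 59.0% of all tested genes in HET kidneys (31% higher, 28% lower) and 63.2% in WT kidneys (33.6% higher, 29.6% lower). Of the 40 genes it changed a smaller share, 32.5% in HET and 35.0% in WT, so a call as such is no trait particular to these genes. The part of low counts in the smaller share was not tested. Of the 15 replication genes, 5 rose and 2 fell in HET (46.7% called), and 7 rose and 1 fell in WT (53.3%). Of the 6 G1 genes, 3 rose and 1 fell in HET, and 2 rose and 1 fell in WT. Of the 19 mitosis genes, 2 rose in HET (10.5%) and 3 rose in WT (15.8%), and none was called lower. The median log2 fold change was 0.18 in HET and 0.14 in WT for replication, 0.43 in HET and 0.29 in WT for G1, and -0.02 in HET and 0.06 in WT for mitosis, beside 0.06 for all tested genes in each genotype. In both genotypes alike 9 genes rose and 2 fell, which is 11 of the 13 genes called in HET and 11 of the 14 called in WT.

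These directions are relative to the typical gene. With plain library totals in place of TMM factors, the median of all genes moved to 0.46 in HET and 0.45 in WT. The proliferation genes called became 22 higher and 0 lower in HET and 25 higher and 0 lower in WT. The whole table split into 11992 higher and 2400 lower in HET and 11831 higher and 2862 lower in WT. Without HET cisplatin 6 and WT cisplatin 6, an alternative chosen after seeing the data, 13 genes rose and 1 fell in HET and 13 rose and 3 fell in WT. The split of all genes under that alternative is not given here, so these counts are not read as more or less than it. Without the 5 libraries in doubt, 6 rose and 2 fell in HET and 11 rose and 3 fell in WT, while 5254 of all 19405 genes rose and 4883 fell in HET and 6266 rose and 5558 fell in WT. Among the animals numbered in the low 600s (8 HET cisplatin, 4 HET PBS, 6 WT cisplatin and 4 WT PBS libraries), 9 rose and 0 fell in HET and 9 rose and 1 fell in WT, while 5118 of all 19491 genes rose and 4740 fell in HET and 5172 rose and 4771 fell in WT. Bulk RNA cannot tell fewer or more cells of a type from less or more RNA per cell, so a change in any of these genes may be either.

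**Figure D1:**
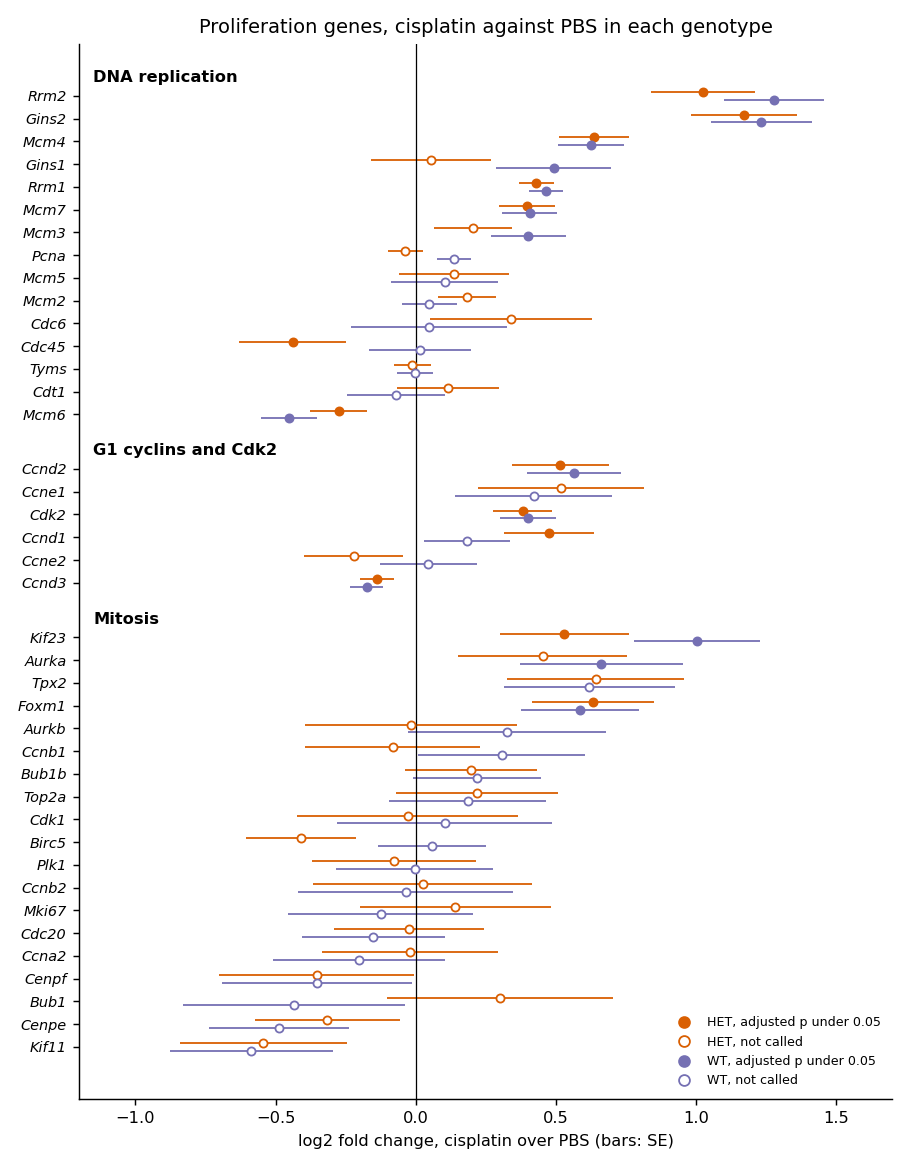
Log2 fold change of each of the 40 genes, cisplatin over PBS, with its standard error, in HET (orange) and WT (purple) kidneys, sorted by the WT value within each role. Filled points passed an adjusted p of 0.05: Rrm2 and Gins2 lie farthest to the right at 1.02 to 1.28, Mcm6 lies to the left at -0.28 in HET and -0.45 in WT, and 16 of 19 mitosis genes have open points in both genotypes.

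Ribonucleotide reductase gave the clearest change. Rrm2, the regulated small subunit, had 4.58, 9.05 and 11.5 CPM (lowest, median, highest) in HET cisplatin, against 3.69, 4.13 and 5.86 CPM in HET PBS. Rrm2 had 5.94, 9.58 and 17.7 CPM in WT cisplatin, against 3.13, 4.23 and 4.97 CPM in WT PBS. Its WT groups did not overlap, and in HET the overlap came from HET cisplatin 6, the lowest cisplatin library, since the next lowest stood at 7.39 CPM. Rrm2 rose by a log2 fold change of 1.02 ± 0.19 in HET (SE, adjusted p = 1.88e-05) and 1.28 ± 0.18 in WT (adjusted p = 2.38e-07), the largest among the 40 genes in WT. Rrm1, the large subunit, had 17.5, 19.96 and 22.7 CPM in HET cisplatin, against 13.5, 14.6 and 16.8 CPM in HET PBS. Rrm1 had 17.9, 20.3 and 22.23 CPM in WT cisplatin, against 13.0, 14.9 and 16.9 CPM in WT PBS. The Rrm1 groups did not overlap in either genotype, and it was the only one of the 40 genes of which this held in HET. Rrm1 rose by 0.43 ± 0.06 in HET (adjusted p = 6.84e-07) and 0.46 ± 0.06 in WT (adjusted p = 7.43e-08). Tyms, which makes thymidylate, averaged 27.8 ± 2.73 CPM in HET cisplatin and 28.1 ± 1.91 CPM in HET PBS (SD, n = 8 and 7). Tyms averaged 27.3 ± 2.52 CPM in WT cisplatin and 27.3 ± 2.27 CPM in WT PBS (n = 8 each), and was not called (log2 fold change -0.01 in HET, -0.00 in WT). With library totals Tyms was called higher, at 0.39 in each genotype. Of the genes without overlap between cisplatin and PBS libraries in WT, 4 were proliferation genes (Gins2, Rrm1, Rrm2 and Cdk2, each higher), or 4 of 40, beside 31.8% of all tested genes (14.4% higher, 17.4% lower), and in HET it was 1 of 40, beside 26.0% of all (11.0% higher, 14.9% lower).

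Because the subunits of one enzyme can be set against each other within a library, their ratio is free of the scaling between libraries. On the deposited TPM scale, which is per transcript length, Rrm2 over Rrm1 was 0.901 ± 0.230 in HET cisplatin and 0.505 ± 0.0825 in HET PBS. It was 0.887 ± 0.322 in WT cisplatin and 0.546 ± 0.105 in WT PBS (SD). Its range was 0.442 to 1.12 in HET cisplatin, against 0.426 to 0.668 in HET PBS. In WT cisplatin it was 0.624 to 1.61, against 0.416 to 0.734 in WT PBS, so the groups overlapped at their edges in both genotypes. The lowest ratio under cisplatin was that of HET cisplatin 6, followed by WT cisplatin 6 and 3.

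The GINS complex, of which Gins1 and Gins2 are subunits, completes the active helicase. Gins2 had 1.44, 2.96 and 3.71 CPM in HET cisplatin, against 0.78, 1.20 and 2.12 CPM in HET PBS. Gins2 had 2.64, 3.30 and 3.52 CPM in WT cisplatin, against 0.86, 1.37 and 1.85 CPM in WT PBS. The WT groups did not overlap, and in HET only HET cisplatin 6 fell below HET PBS 5, the highest PBS library. Gins2 rose by 1.17 ± 0.19 in HET (adjusted p = 3.13e-06) and 1.23 ± 0.18 in WT (adjusted p = 5.05e-07). Gins1 averaged 0.777 ± 0.172 CPM in HET cisplatin and 0.748 ± 0.282 CPM in HET PBS. Gins1 averaged 0.991 ± 0.274 CPM in WT cisplatin and 0.705 ± 0.148 CPM in WT PBS. It was called in WT at 0.49 ± 0.21 (adjusted p = 0.0382) and not in HET at 0.06 ± 0.21 (adjusted p = 0.842), and the test of the difference between genotypes called no gene (adjusted p = 0.94 for Gins1). The WT call for Gins1 was lost without any one of WT cisplatin 2, 4 or 5 or WT PBS 1, 2, 6 or 8, with log2 fold changes of 0.40 to 0.49 and adjusted p of 0.0512 to 0.0981. It was also lost without the 5 libraries in doubt (0.46, adjusted p = 0.076) and among the animals numbered in the low 600s (0.49, adjusted p = 0.135). The Gins2 gene overlaps Gse1 on the opposite strand. The sources used here do not state whether counting used strand, so reads of overlapping genes may be shared. Ccna2 likewise overlaps Exosc9 on the opposite strand, and Mcm7 overlaps Cops6 and Ap4m1. Foxm1 overlaps Tex52 and Rrm1 overlaps Gm45399 on the same strand, where counting by strand would not separate their reads. The same holds for Cdt1 with Gm20388 and for Kif11 with the pseudogene AC137605.4. Deposited counts were not whole in some library for 18 of the 40 genes. Among them were Tyms (31 libraries), Rrm1 (30), Kif23 (25), Ccnd3 (25), Birc5 (25), Mcm2 (23), Top2a (22), Cenpf (19), Kif11 (16) and Mcm5 (15).

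The 6 MCM subunits form one hexamer, the core of the replicative helicase, and their mRNAs did not all go one way. Mcm4 had 7.14, 12.2 and 15.4 CPM in HET cisplatin, against 6.21, 7.68 and 8.82 CPM in HET PBS. Mcm4 had 10.7, 13.3 and 16.1 CPM in WT cisplatin, against 7.15, 8.28 and 10.9 CPM in WT PBS. It rose by 0.63 ± 0.12 in HET (adjusted p = 5.52e-05) and 0.62 ± 0.12 in WT (adjusted p = 3.2e-05). Mcm7 rose by 0.40 ± 0.10 in HET (adjusted p = 0.00112) and 0.41 ± 0.10 in WT (adjusted p = 0.00053). Its average was 17.99 ± 2.91 CPM in HET cisplatin and 13.7 ± 1.76 CPM in HET PBS. Mcm7 averaged 18.8 ± 1.96 CPM in WT cisplatin and 14.2 ± 1.90 CPM in WT PBS, and the Mcm7 locus also hosts the miRNA genes Mir25, Mir93 and Mir106b. Mcm3 was called in WT at 0.40 ± 0.13 (adjusted p = 0.0093) and not in HET at 0.20 ± 0.14 (adjusted p = 0.204).

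Mcm6 went the other way. It had 10.7, 12.7 and 14.3 CPM in HET cisplatin, against 12.7, 14.1 and 18.98 CPM in HET PBS. Mcm6 had 11.0, 13.1 and 17.1 CPM in WT cisplatin, against 14.2, 18.8 and 23.1 CPM in WT PBS. Cisplatin and PBS libraries overlapped in both genotypes, and the highest cisplatin libraries were HET cisplatin 6 and WT cisplatin 6, the same libraries that lay nearest to PBS on the first principal component. Mcm6 fell by 0.28 ± 0.10 on the log2 scale in HET (adjusted p = 0.0215) and 0.45 ± 0.10 in WT (adjusted p = 0.000199) with TMM factors, while with library totals it stood at 0.13 in HET (adjusted p = 0.279) and -0.06 in WT (adjusted p = 0.619) and was not called. The HET call for Mcm6 was also lost without HET PBS 2 (-0.23, adjusted p = 0.0638) or HET PBS 3 (-0.22, adjusted p = 0.0699), or without the 5 libraries in doubt (-0.28, adjusted p = 0.0542). Among the animals numbered in the low 600s neither call for Mcm6 was kept, at -0.09 in HET (adjusted p = 0.476) and -0.23 in WT (adjusted p = 0.0727). Mcm2 and Mcm5 were not called, at 0.18 ± 0.10 and 0.14 ± 0.20 in HET and 0.05 ± 0.10 and 0.10 ± 0.19 in WT. Mcm2 passed in HET without HET cisplatin 6 (0.24, adjusted p = 0.0349).

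Within a library, Mcm4 over Mcm6 on the TPM scale was 0.794 ± 0.156 in HET cisplatin and 0.401 ± 0.0778 in HET PBS. It was 0.789 ± 0.114 in WT cisplatin and 0.386 ± 0.0650 in WT PBS. The WT groups did not overlap (0.578 to 0.908 in WT cisplatin, 0.330 to 0.527 in WT PBS). In HET the lowest cisplatin value, 0.481 in HET cisplatin 6, lay below the highest HET PBS value of 0.504, while the next cisplatin library stood at 0.697. Mcm7 over Mcm6 was 2.62 ± 0.450 in HET cisplatin and 1.43 ± 0.380 in HET PBS. It was 2.41 ± 0.351 in WT cisplatin and 1.23 ± 0.220 in WT PBS, again without overlap in WT (1.95 to 3.12 in WT cisplatin, 0.985 to 1.54 in WT PBS). In HET the Mcm7 over Mcm6 ranges overlapped, at 1.68 to 3.12 in HET cisplatin and 0.931 to 2.04 in HET PBS. Mcm2, Mcm3 and Mcm5 over Mcm6 also averaged higher under cisplatin in each genotype, with ranges that overlapped in both. Mcm4 and Mcm7 were called higher and Mcm6 lower in these same data, so their ratios restate those calls and are not separate support. The ratios do not tell which of the subunits changed. In PBS kidneys the subunits already differed in level: Mcm7 had 4.67 ± 0.877 TPM in HET PBS and 5.10 ± 1.21 TPM in WT PBS, Mcm6 had 3.39 ± 0.650 and 4.17 ± 0.746 TPM in those groups, and Mcm3 and Mcm5 stood near 1 TPM.

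**Figure D2:**
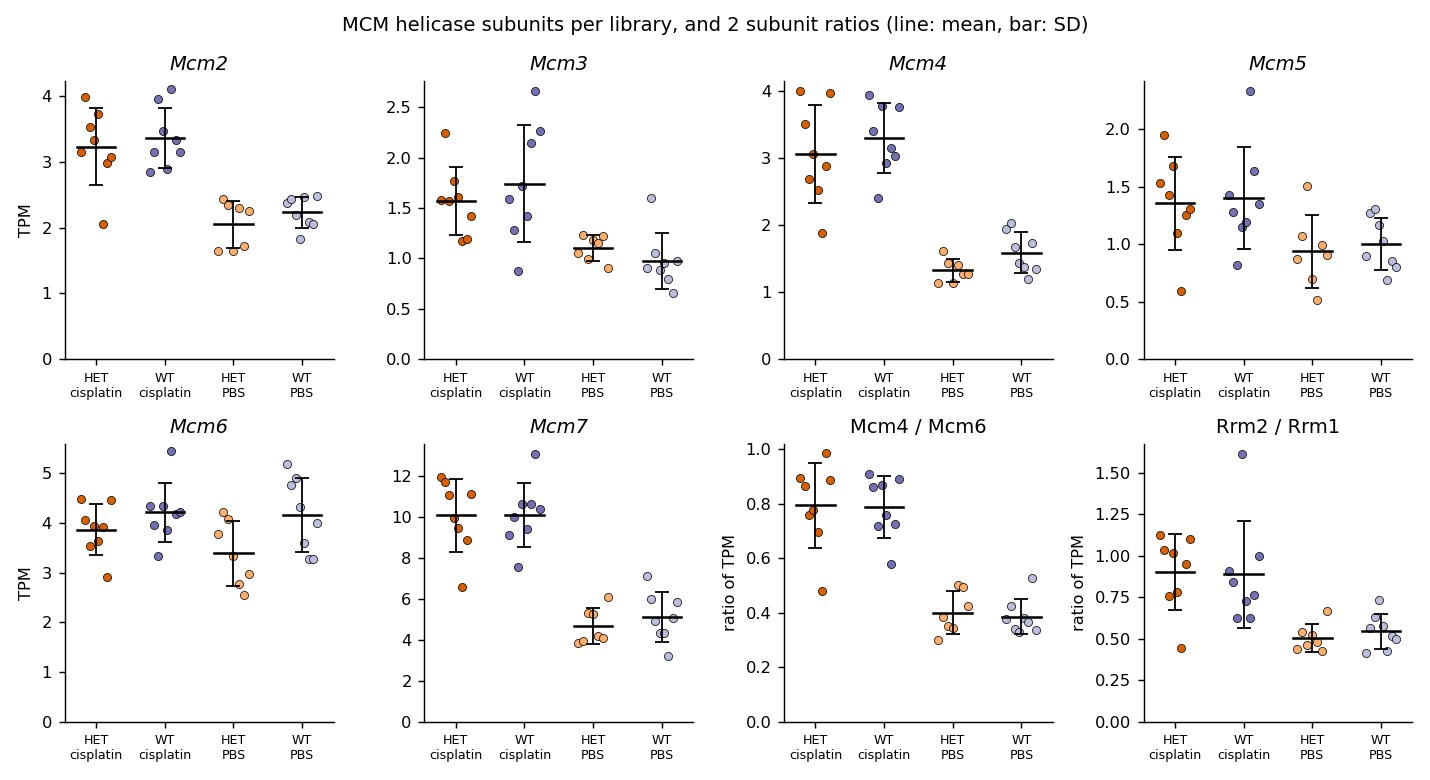
TPM per library of the 6 MCM subunits, and the within-library TPM ratios of Mcm4 over Mcm6 and of Rrm2 over Rrm1, for HET cisplatin, WT cisplatin, HET PBS and WT PBS, each point a mouse, with mean and SD. The Mcm4 to Mcm6 ratio averages 0.794 and 0.789 in the cisplatin groups and 0.401 and 0.386 in the PBS groups.

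The other origin and fork genes moved little or were too scarce to tell. Pcna, the sliding clamp of the DNA polymerases, averaged 29.7 ± 4.12 CPM in HET cisplatin and 30.4 ± 1.46 CPM in HET PBS. Pcna averaged 31.2 ± 1.69 CPM in WT cisplatin and 28.4 ± 1.72 CPM in WT PBS. It missed the threshold in WT (0.14 ± 0.06, adjusted p = 0.0511) and in HET (-0.04 ± 0.06, adjusted p = 0.632), and it passed in WT in 8 of the 31 fits that left out 1 library (0.14 to 0.16, adjusted p = 0.0179 to 0.0481), those without HET cisplatin 4, 5, 6, 7 or 8, WT cisplatin 2 or 7, or WT PBS 6. With library totals Pcna was called higher at 0.37 in HET and 0.53 in WT. Without the 5 libraries in doubt Pcna was called higher in WT (0.16, adjusted p = 0.0323). Cdc45, a partner of the active helicase, averaged 1.31 ± 0.464 CPM in HET cisplatin and 1.78 ± 0.464 CPM in HET PBS. Cdc45 averaged 1.76 ± 0.255 CPM in WT cisplatin and 1.74 ± 0.331 CPM in WT PBS. It was called lower in HET at -0.44 ± 0.19 (adjusted p = 0.0467), a call lost in 16 of the 31 fits that left out 1 library (-0.44 to -0.34, adjusted p up to 0.124) and with library totals (-0.03, adjusted p = 0.889). The Cdc45 call was also lost without the 5 libraries in doubt (-0.41, adjusted p = 0.104) and among the animals numbered in the low 600s (-0.27, adjusted p = 0.376). The 16 fits without 1 library left out HET cisplatin 2, 3, 5, 6 or 8, HET PBS 1, 2, 3 or 6, WT cisplatin 2, 3, 7 or 8, or WT PBS 2, 6 or 8. Cdc6 and Cdt1, which load the MCM ring, were not called: Cdc6 stood at 0.34 ± 0.29 in HET and 0.05 ± 0.28 in WT, from 0.524 to 0.662 CPM on average, and Cdt1 at 0.12 ± 0.18 in HET and -0.07 ± 0.18 in WT.

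Among the G1 genes, Cdk2, the kinase partner of the E cyclins, rose in both genotypes. It had 7.85, 14.6 and 16.1 CPM in HET cisplatin, against 9.38, 10.3 and 11.1 CPM in HET PBS. Cdk2 had 13.0, 14.1 and 17.7 CPM in WT cisplatin, against 9.64, 11.4 and 12.7 CPM in WT PBS. The WT groups did not overlap, and HET cisplatin 6 was below every HET PBS library while the other 7 HET cisplatin libraries were above them. Cdk2 rose by 0.38 ± 0.11 in HET (adjusted p = 0.00236) and 0.40 ± 0.10 in WT (adjusted p = 0.000922), and it overlaps Pmel on the opposite strand.

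The 3 D cyclins, which activate Cdk4 and Cdk6, differed from each other. Ccnd2 had 21.5, 40.3 and 71.2 CPM in HET cisplatin, against 26.0, 30.0 and 31.6 CPM in HET PBS. Ccnd2 had 29.9, 50.9 and 55.9 CPM in WT cisplatin, against 27.8, 30.7 and 37.7 CPM in WT PBS. Most cisplatin libraries were above the PBS range, and WT cisplatin 3 and 6 and HET cisplatin 6 and 8 were within or below it. Ccnd2 rose by 0.52 ± 0.17 in HET (adjusted p = 0.0116) and 0.56 ± 0.17 in WT (adjusted p = 0.00412), and the HET call was lost without the 5 libraries in doubt (0.41, adjusted p = 0.101) and among the animals numbered in the low 600s (0.55, adjusted p = 0.0624). Ccnd1 had 118, 201 and 259 CPM in HET cisplatin, against 111, 138 and 176 CPM in HET PBS. Ccnd1 had 121, 163 and 307 CPM in WT cisplatin, against 125, 154 and 198 CPM in WT PBS. Its groups overlapped in both genotypes, and the WT maximum came from WT cisplatin 4 alone. Ccnd1 was called in HET at 0.47 ± 0.16 (adjusted p = 0.0113) and not in WT at 0.18 ± 0.15 (adjusted p = 0.309), and without WT cisplatin 4 the WT value was 0.02. The HET call of Ccnd1 was lost without the 5 libraries in doubt (0.43, adjusted p = 0.0691) and among the animals numbered in the low 600s (0.48, adjusted p = 0.0528).

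Ccnd3 had 44.6, 56.8 and 64.5 CPM in HET cisplatin, against 57.9, 61.8 and 65.5 CPM in HET PBS. Ccnd3 had 47.5, 53.2 and 56.2 CPM in WT cisplatin, against 51.9, 60.8 and 66.8 CPM in WT PBS. The groups overlapped, with cisplatin libraries toward the low end. Ccnd3 was called lower at -0.14 ± 0.06 in HET (adjusted p = 0.0496) and -0.17 ± 0.06 in WT (adjusted p = 0.0104), a direction that turned with library totals, where it was called higher at 0.26 in HET and 0.22 in WT. The HET call of Ccnd3 was lost in 22 of the 31 fits that left out 1 library (-0.14 to -0.10, adjusted p = 0.051 to 0.13), the exceptions being those without HET cisplatin 4 or 7, HET PBS 5, 6 or 7, WT cisplatin 4, or WT PBS 1, 3 or 8. It was also lost among the animals numbered in the low 600s (-0.10, adjusted p = 0.303). Ccnd3 overlaps Bysl on the opposite strand. On the TPM scale Ccnd1 was the most abundant of the 40 genes, at 45.3 ± 10.6 TPM in HET cisplatin and 23.2 ± 2.69 TPM in HET PBS, and 41.7 ± 11.5 TPM in WT cisplatin and 27.4 ± 5.68 TPM in WT PBS. The E cyclins were scarce: Ccne1 averaged 0.329 to 0.535 CPM and Ccne2 1.47 to 1.74 CPM over the groups, and neither was called (Ccne1 at 0.52 ± 0.30 in HET and 0.42 ± 0.28 in WT, Ccne2 at -0.22 ± 0.18 and 0.04 ± 0.17). Ccne1 passed in HET without HET cisplatin 6 (0.66, adjusted p = 0.0365).

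**Figure D3:**
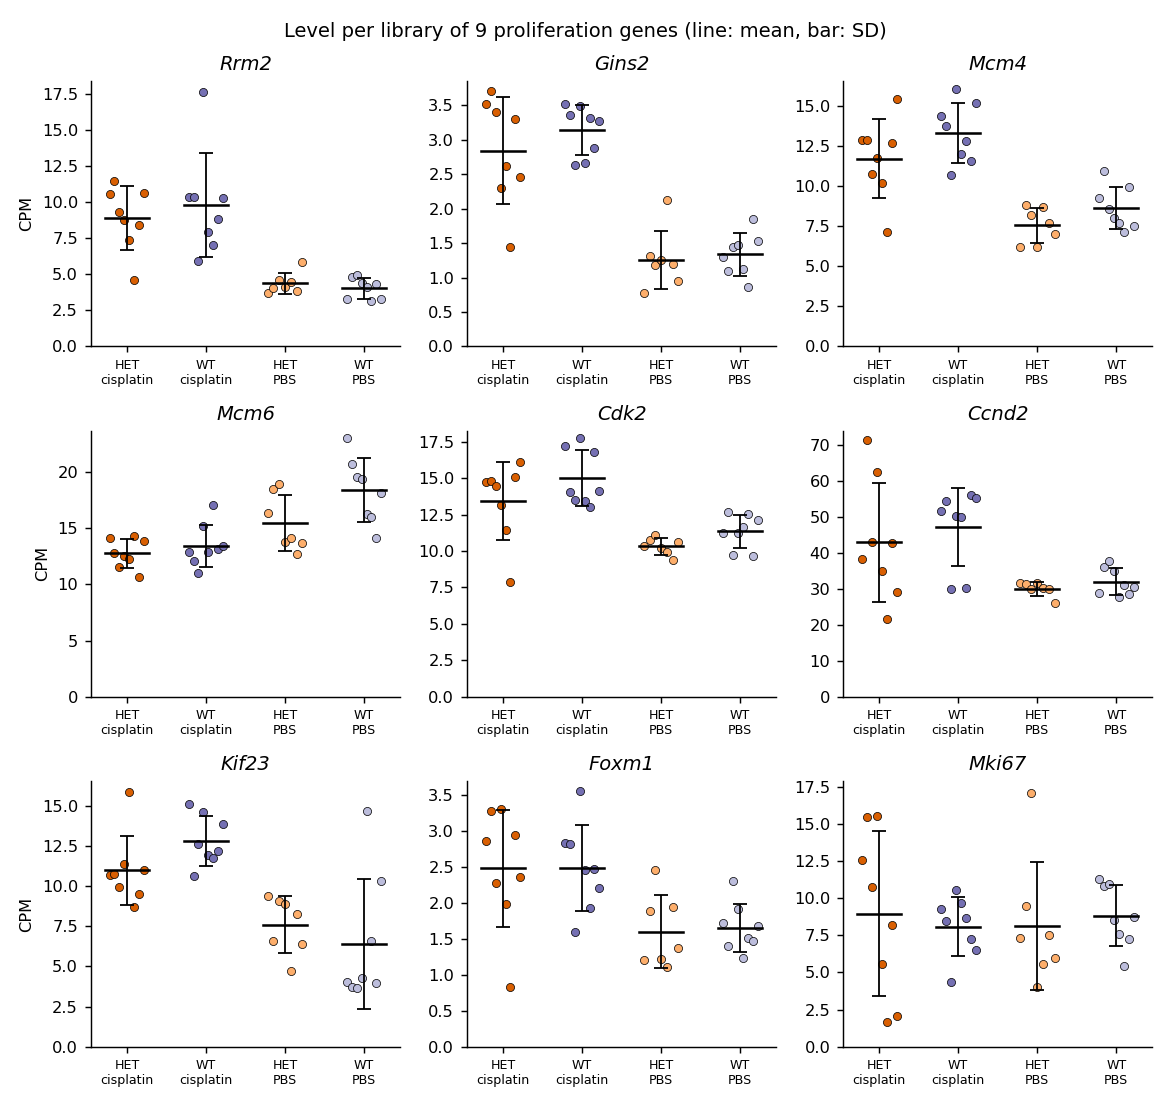
CPM in each library of Rrm2, Gins2, Mcm4, Mcm6, Cdk2, Ccnd2, Kif23, Foxm1 and Mki67 in HET cisplatin, WT cisplatin, HET PBS and WT PBS, with group mean and SD. Rrm2 and Gins2 are higher under cisplatin, Mcm6 is lower, and Mki67 overlaps, with HET cisplatin 6 and 8 at 1.63 and 2.05 CPM.

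Mitosis genes were scarce and variable, and most were not called. Mki67, the standard proliferation marker, had 1.63, 9.46 and 15.6 CPM in HET cisplatin, against 4.03, 7.35 and 17.1 CPM in HET PBS. Mki67 had 4.34, 8.58 and 10.5 CPM in WT cisplatin, against 5.43, 8.62 and 11.3 CPM in WT PBS. Cisplatin and PBS libraries overlapped over most of their range, and the log2 fold change was 0.14 ± 0.34 in HET (adjusted p = 0.743) and -0.13 ± 0.33 in WT (adjusted p = 0.76). Cdk1, the kinase that drives entry into mitosis, had 0.03, 1.09 and 1.80 CPM in HET cisplatin, against 0.28, 1.18 and 1.81 CPM in HET PBS. Cdk1 had 0.52, 1.10 and 1.67 CPM in WT cisplatin, against 0.56, 0.97 and 1.98 CPM in WT PBS. The lowest of these, HET cisplatin 6, rested on 1 read, and Cdk1 was not called (-0.03 ± 0.39 in HET, 0.10 ± 0.38 in WT). With such standard errors, moderate changes of either sign were not detectable, and 13 of the 19 mitosis genes averaged under 2 CPM.

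The mitosis gene with the largest change in WT was Kif23, a kinesin of the central spindle needed for cytokinesis. It had 8.71, 10.7 and 15.9 CPM in HET cisplatin, against 4.69, 8.25 and 9.40 CPM in HET PBS. Kif23 had 10.6, 12.4 and 15.1 CPM in WT cisplatin, against 3.65, 4.16 and 14.7 CPM in WT PBS. In WT the groups would not have overlapped without WT PBS 5 at 14.7 CPM, and WT PBS 8 at 10.3 CPM also stood above the other WT PBS libraries. Kif23 rose by 0.53 ± 0.23 in HET (adjusted p = 0.049) and 1.0 ± 0.22 in WT (adjusted p = 0.00025). The HET call for Kif23 was lost in 19 of the 31 fits that left out 1 library (0.44 to 0.55, adjusted p = 0.0515 to 0.114), the exceptions being those without HET cisplatin 6 or 7, HET PBS 1, 3 or 4, or WT PBS 1, 2, 3, 4, 5, 7 or 8. It was also lost without the 5 libraries in doubt (0.64, adjusted p = 0.071). The WT call for Kif23 was lost among the animals numbered in the low 600s, at 0.53 (adjusted p = 0.0776).

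Foxm1, the transcription factor that drives mitosis genes, had 0.83, 2.61 and 3.30 CPM in HET cisplatin, against 1.11, 1.38 and 2.46 CPM in HET PBS. Foxm1 had 1.60, 2.46 and 3.55 CPM in WT cisplatin, against 1.23, 1.59 and 2.30 CPM in WT PBS. The groups overlapped in both genotypes. Foxm1 rose by 0.63 ± 0.22 in HET (adjusted p = 0.0133) and 0.59 ± 0.21 in WT (adjusted p = 0.0157), and the HET call was lost without the 5 libraries in doubt (0.56, adjusted p = 0.0805) and the WT call among the animals numbered in the low 600s (0.68, adjusted p = 0.0517). Aurka, the centrosomal Aurora kinase, had 0.44, 0.81 and 1.54 CPM in HET cisplatin, against 0.35, 0.80 and 0.87 CPM in HET PBS. Aurka had 0.56, 0.96 and 2.14 CPM in WT cisplatin, against 0.38, 0.69 and 1.04 CPM in WT PBS. It was called in WT at 0.66 ± 0.29 (adjusted p = 0.0469) and not in HET at 0.45 ± 0.30 (adjusted p = 0.201). The WT call for Aurka was lost in 10 of 31 such fits, those without HET cisplatin 3, HET PBS 3, WT cisplatin 1, 2, 4 or 8, or WT PBS 4, 5, 6 or 8 (0.43 to 0.66, adjusted p = 0.0505 to 0.184), and it was smallest without WT cisplatin 4. It was also lost without the 5 libraries in doubt (0.64, adjusted p = 0.0769) and among the animals numbered in the low 600s (0.90, adjusted p = 0.0753).

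The remaining 16 mitosis genes were not called in either genotype. Tpx2, which activates Aurka on the spindle, came close, at 0.64 ± 0.32 in HET (adjusted p = 0.081) and 0.62 ± 0.31 in WT (adjusted p = 0.0778). It passed without HET cisplatin 6 in HET (0.79, adjusted p = 0.0182) and in WT (0.62, adjusted p = 0.0447), and in HET also without HET cisplatin 8, HET PBS 2 or HET PBS 3 (0.75 to 0.79, adjusted p = 0.0405 to 0.0486). Among the animals numbered in the low 600s Tpx2 passed in HET (1.01, adjusted p = 0.0418) and in WT (1.16, adjusted p = 0.0282). Kif11, the kinesin that separates the spindle poles, lay on the other side, at -0.54 ± 0.30 in HET (adjusted p = 0.118) and -0.59 ± 0.29 in WT (adjusted p = 0.0787). It passed in WT without HET cisplatin 6 or 8 or WT cisplatin 6 (-0.70 to -0.59, adjusted p = 0.0353 to 0.0423) and in HET without HET cisplatin 4 (-0.75, adjusted p = 0.0301). Without the 5 libraries in doubt Kif11 passed in HET (-0.91, adjusted p = 0.0318). The kinetochore proteins Cenpe and Cenpf stood at -0.32 ± 0.26 and -0.35 ± 0.35 in HET and -0.49 ± 0.25 and -0.35 ± 0.34 in WT, and Cenpe passed in WT without WT PBS 6 (-0.59, adjusted p = 0.0378). Cenpe also passed in WT without the 5 libraries in doubt (-0.59, adjusted p = 0.0418).

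Top2a, the topoisomerase that untangles chromosomes, averaged 5.54 ± 2.95 CPM in HET cisplatin and 4.77 ± 1.90 CPM in HET PBS. Top2a averaged 5.20 ± 1.26 CPM in WT cisplatin and 4.57 ± 0.982 CPM in WT PBS, with fold changes of 0.22 ± 0.29 and 0.18 ± 0.28 (log2, HET and WT). The mitotic cyclins Ccna2, Ccnb1 and Ccnb2 stood at -0.02, -0.08 and 0.02 in HET and -0.20, 0.31 and -0.04 in WT, with standard errors of 0.30 to 0.39. The kinases Plk1 and Aurkb stood at -0.08 and -0.02 in HET and -0.00 and 0.32 in WT, and the spindle checkpoint proteins Bub1 and Bub1b at 0.30 and 0.20 in HET and -0.43 and 0.22 in WT. Cdc20, which activates the anaphase ubiquitin ligase, stood at -0.03 in HET and -0.15 in WT. Birc5, or survivin, a partner of Aurkb, stood at -0.41 ± 0.20 in HET (adjusted p = 0.0741) and 0.06 ± 0.19 in WT, and it passed in HET without HET cisplatin 4 (-0.53, adjusted p = 0.019) or HET PBS 4 (-0.50, adjusted p = 0.0281).

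**Figure D4:**
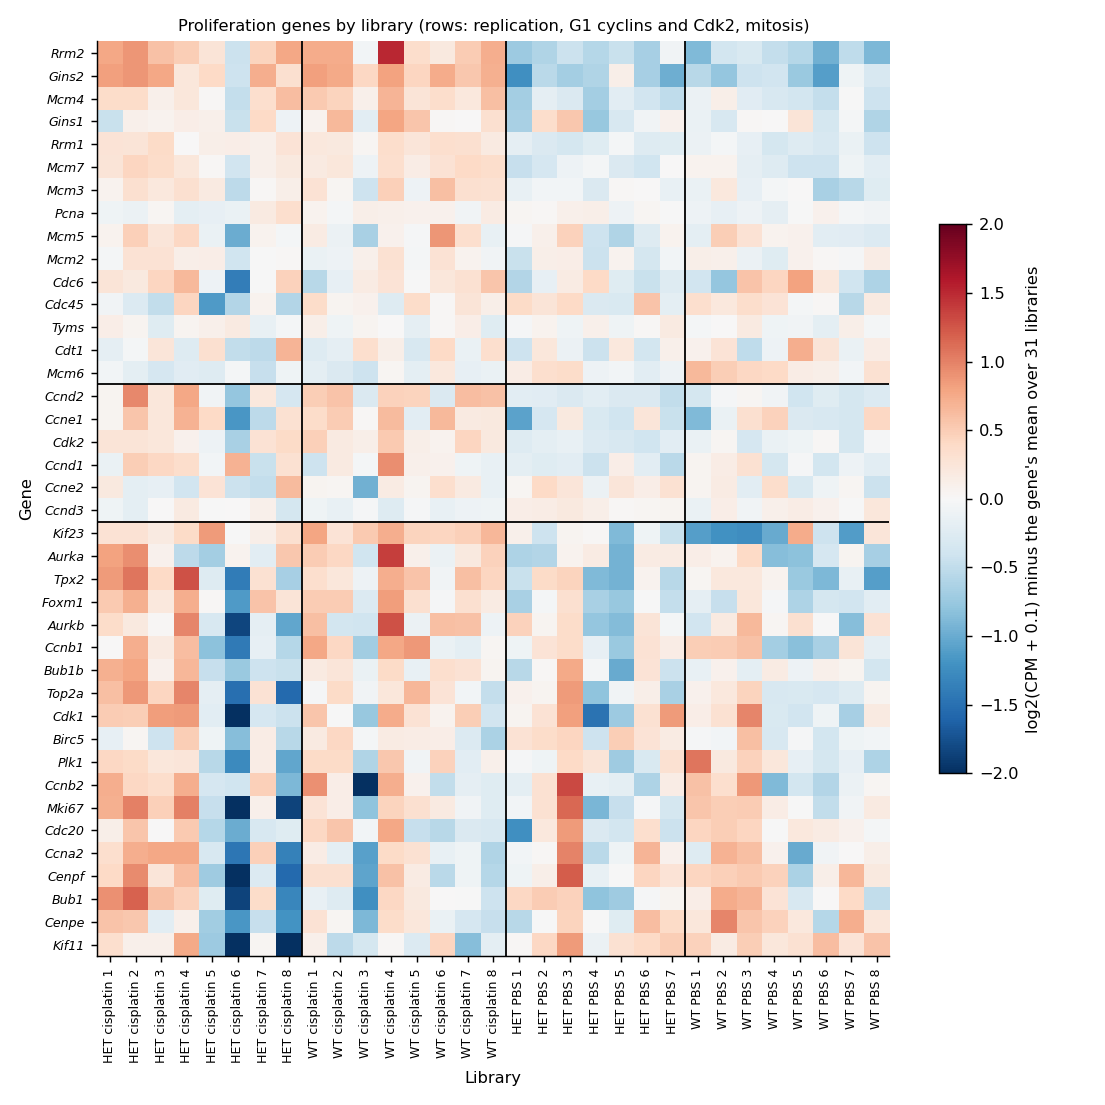
Each of the 40 genes (rows, by role and then by WT log2 fold change) in each of the 31 libraries (columns, by group), as log2(CPM + 0.1) minus the gene's mean over all libraries, with colours saturating at 2 and -2. Rows at the top of the replication block are higher in cisplatin columns, while mitosis rows vary from library to library, lowest in HET cisplatin 6 and 8.

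Spread between libraries of a group was described for each role. The median SD of a mitosis gene over the libraries of a group was 0.76 in HET cisplatin, 0.44 in WT cisplatin, 0.52 in HET PBS and 0.47 in WT PBS on the log2 CPM scale, against 0.31, 0.20, 0.23 and 0.26 for a replication gene. Of the 19 mitosis genes 13 averaged under 2 CPM, and the part of low counts in their wider spread was not tested. The mean log2 CPM of the 15 replication genes was 2.60 ± 0.22 in HET cisplatin and 2.36 ± 0.12 in HET PBS, and 2.72 ± 0.13 in WT cisplatin and 2.41 ± 0.10 in WT PBS. The mean of the 19 mitosis genes was 0.56 ± 0.76 in HET cisplatin and 0.62 ± 0.39 in HET PBS, and 0.73 ± 0.37 in WT cisplatin and 0.65 ± 0.24 in WT PBS. HET cisplatin 6 was lowest in both, at 2.09 for replication and -0.81 for mitosis, whereas HET cisplatin 8 was low in mitosis, at -0.23, with a replication level of 2.73 inside the range of its group. The distance between the replication and the mitosis mean was 2.04 ± 0.61 in HET cisplatin and 1.73 ± 0.32 in HET PBS, and 1.99 ± 0.30 in WT cisplatin and 1.76 ± 0.21 in WT PBS, a difference of 0.30 in HET and 0.23 in WT that was not tested. That value depended on the summary. With medians over the genes in place of means it was 0.98 in HET and 0.98 in WT. With means it was 0.17 in HET without HET cisplatin 8. By library, the distance was 2.90 in HET cisplatin 6 and 2.96 in HET cisplatin 8. The remaining HET cisplatin libraries lay at 1.44 to 2.24, against 1.23 to 2.22 in HET PBS. WT groups overlapped as well, at 1.64 to 2.47 in WT cisplatin and 1.44 to 2.11 in WT PBS.

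**Figure D5:**
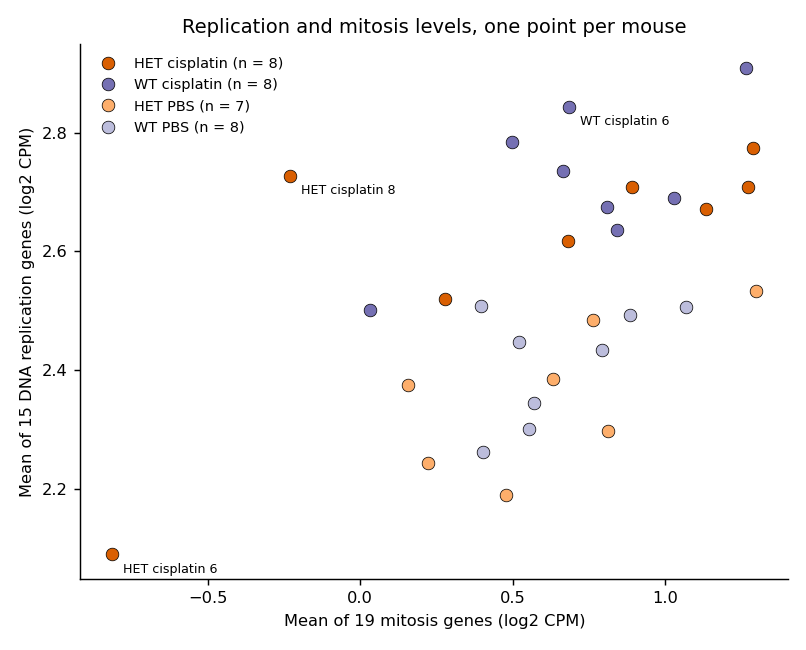
Mean log2 CPM of the 19 mitosis genes (x) against that of the 15 replication genes (y), one point per mouse, coloured by group. At a given mitosis level cisplatin points tend to lie above PBS points, and HET cisplatin 6 (-0.81, 2.09) and HET cisplatin 8 (-0.23, 2.73) lie to the left.

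Genes that restrain or license the cell cycle were described from wider lists, beside 59.0% of all tested genes called in HET and 63.2% in WT. The share called was 66.7% in each genotype for CDK inhibitors, and 55.0% in HET and 75.0% in WT for checkpoint genes. It was 63.2% in HET and 57.9% in WT for the E2F, RB and DREAM genes. For the last list, with the D cyclin kinases, it was 71.4% in HET and 85.7% in WT. Cdkn1a, the p53 target p21 that inhibits cyclin-dependent kinases, had 495, 667 and 775 CPM in HET cisplatin, against 8.95, 20.7 and 55.4 CPM in HET PBS. Cdkn1a had 364, 675 and 715 CPM in WT cisplatin, against 2.60, 7.23 and 26.4 CPM in WT PBS. Cisplatin and PBS libraries did not overlap, and Cdkn1a rose by 4.75 ± 0.41 in HET (adjusted p = 2.28e-11) and 5.96 ± 0.41 in WT (adjusted p = 1.19e-13). Of the 6 tested CDK inhibitors, 3 rose and 1 fell in HET and 4 rose in WT, among them Cdkn2b at 1.26 in HET and 1.71 in WT and Cdkn1c at 0.50 in HET and 0.51 in WT. Of 20 checkpoint genes, 9 rose and 2 fell in HET and 12 rose and 3 fell in WT. They included Gtse1, a G2 and S phase protein that restrains p53 (5.08 in HET, 4.86 in WT), Ccng1 and Mdm2, both p53 targets (2.45 and 2.14 in HET, 2.32 and 2.09 in WT), and Hus1, a subunit of the checkpoint clamp, which fell by 1.03 in HET and 1.05 in WT. Of 19 genes of the E2F, RB and DREAM complexes, 3 rose and 9 fell in HET and 3 rose and 8 fell in WT, with the retinoblastoma gene Rb1 at 0.78 and 0.83, the E2F partner Tfdp1 at 0.47 and 0.39, Rbbp4 at -0.36 and -0.43 and E2f5 at -0.62 and -0.53 (HET and WT). Of 7 tested genes of the D cyclin kinases, the Cdk-activating kinase and Myc, 4 rose and 1 fell in HET and 5 rose and 1 fell in WT, with Cdk6 at 0.63 and 0.78, Cdk4 at 0.42 and 0.25, Mnat1 at 0.42 and 0.60 and its partner Ccnh at -0.35 and -0.60.

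Other genes of replication and mitosis moved in both directions, as did the whole table. Of all tested genes 59.0% were called in HET and 63.2% in WT. Both lists had smaller shares, the mitosis list by more, so a call as such is no trait particular to them. Of 39 other tested replication genes, 12 rose and 8 fell in HET (51.3% called) and 15 rose and 9 fell in WT (61.5%), with medians of 0.12 and 0.18. Among them Chaf1b, a histone chaperone subunit of the replication fork, rose to 2.87 ± 0.941 CPM in HET cisplatin, against 0.964 ± 0.224 CPM in HET PBS. Chaf1b averaged 3.59 ± 1.03 CPM in WT cisplatin, against 0.745 ± 0.225 CPM in WT PBS. Uhrf1, a reader of hemimethylated DNA, rose by 1.66 in HET and 1.48 in WT, and Gmnn, geminin, an inhibitor of Cdt1, fell by 0.82 in HET and 0.71 in WT. Of 46 other tested mitosis genes, 12 rose and 5 fell in HET (37% called) and 12 rose and 4 fell in WT (34.8%), with medians of 0.14 and 0.15. Ckap2, a spindle protein, rose by 4.62 in HET and 4.14 in WT, Anln, a scaffold of the cleavage furrow, by 1.23 and 1.83, and Ccnf by 2.03 and 1.57, and Kif20b fell by 2.65 and 2.58 (HET and WT).

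Markers of other cell types moved with treatment beside these genes, where 59.0% of all tested genes were called in HET and 63.2% in WT. The 7 injured tubule markers summed to 2518 to 6355 CPM in HET cisplatin, against 463.0 to 602.1 CPM in HET PBS. In WT cisplatin the sum was 4945 to 6263 CPM, against 391.8 to 552.8 CPM in WT PBS, and 7 of 7 rose in each genotype. Of 7 macrophage markers 4 rose and 1 fell in HET and 5 rose and 1 fell in WT, and their sum was 37.1 to 142 CPM in HET cisplatin, against 77.5 to 107 CPM in HET PBS. In WT cisplatin the sum was 93.4 to 217 CPM, against 78.5 to 92.8 CPM in WT PBS. Of 5 fibroblast markers 4 rose in each genotype, at sums of 170 to 620 CPM in HET cisplatin, against 199 to 299 CPM in HET PBS. In WT cisplatin the sum was 263 to 487 CPM, against 183 to 277 CPM in WT PBS. Erythroid markers summed to 2.24 to 70.9 CPM in HET cisplatin, against 255 to 549 CPM in HET PBS. In WT cisplatin the sum was 2.77 to 34.9 CPM, against 244 to 1265 CPM in WT PBS, and 4 of 4 tested fell in each genotype. The 6 endothelial markers fell in each genotype, with sums of 303 to 365 CPM in HET cisplatin, 293 to 343 CPM in WT cisplatin, 435 to 475 CPM in HET PBS and 432 to 500 CPM in WT PBS, and the 8 proximal tubule markers fell in each genotype. Of 5 tested T cell markers 4 fell in each genotype, and of 3 tested B cell markers none was called in HET and 2 fell in WT; their sums were at most 4.59 and 3.33 CPM in any library. No marker of these lists was at 0 in all libraries of a group, and the part of these cell types in the changes of the proliferation genes was not tested.

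No difference by genotype passed the test in these 40 genes. The test of whether the cisplatin response differed between HET and WT called 0 of them, with 0 at an unadjusted p under 0.05, and 0% of all genes were called. HET against WT under cisplatin called 0, with 1 at an unadjusted p under 0.05 (Cdc45, -0.42 ± 0.18), beside 0.00519% of all genes, and HET against WT under PBS called 0, with 1 at an unadjusted p under 0.05 (Mcm6, -0.25 ± 0.10), beside 0% of all genes. These calls are from edgeR, and DESeq2 called 0 in each comparison as well, with 0, 1 and 1 at an unadjusted p under 0.05. With limma voom the counts were 0 called and 2, 1 and 2 unadjusted, and with limma on TPM 0 called and 1, 1 and 2 unadjusted. The smallest unadjusted p for a difference in response was that of Pcna (0.0563, difference -0.17 ± 0.09), followed by Cdc45 (0.0931, -0.46 ± 0.26) and Birc5 (0.0994, -0.47 ± 0.27). The standard errors of this difference ran from 0.08 to 0.56 over the 40 genes.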

How the data were processed

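Bulk RNA-seq of 31 mouse kidneys was used. Reads were trimmed with fastp, aligned with STAR to GRCm38/mm10 and counted with featureCounts, per the submitters' processing notes, which give no versions here. The authors deposited an estimated count per gene with no normalization, of which 12.5% of values were not whole, and these were rounded. TPM and FPKM, which the authors deposited beside them, are scaled by depth and gene length; FPKM was used only to check TPM. Genes were kept with edgeR 4.0.16 filterByExpr (R 4.3.3), scaled with TMM and tested with the quasi-likelihood test in 1 model of 4 group means, adjusted by Benjamini-Hochberg over all genes tested at 0.05. CPM used TMM-scaled totals. Levels on the log2 CPM scale used a prior count of 2. Standard errors (SE) of edgeR fold changes were back-calculated, as the absolute log2 fold change over the square root of the F statistic. limma 3.58.1 on log2(TPM + 1), limma voom, DESeq2 1.42.0, other scaling and filters, and leaving out libraries were alternatives. Replicates are separate animals. The 40 genes and all lists were chosen with earlier results of these data known. All 40 are described by role; values by library are given for the 3 smallest p in WT per role plus Mki67, Cdk1 and Ccnd1, and Ccnd1 to Ccnd3 are described together. Up to 4 genes per wider list with the smallest p in WT, and Cdkn1a, are named; 1 gene that this rule picks is not reported here. Promoter sequences are from the RefSeq table of GRCm38.p6.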

Additional observations from a re-analysis of the deposited data

Results flagged for a closer look

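Of 176 groups of 7 or 8 libraries examined, 16 held a library far from the others by Dixon's criterion. The criterion flags about 1 in 20 groups of independent, normally distributed values. These groups share libraries, and some are means of the same genes, so the 16 are not read as more than chance gives. HET cisplatin 6 was lowest for Mcm3, at 2.88 CPM with the nearest library at 4.26 CPM, and for the mean replication level, at 2.09 with the nearest at 2.52 (log2 CPM). WT cisplatin 4 was highest for Rrm2 at 17.7 CPM (nearest 10.4), Ccnd1 at 307 CPM (nearest 183), Aurka at 2.14 CPM (nearest 1.12) and Aurkb at 1.32 CPM (nearest 0.791). HET cisplatin 5 was highest for Kif23 at 15.9 CPM (nearest 11.4). HET PBS 3 was highest for 4 mitosis genes, Mki67 at 17.1 CPM (nearest 9.50), Top2a at 8.47 CPM (nearest 5.08), Ccnb2 at 1.80 CPM (nearest 0.845) and Cenpf at 5.20 CPM (nearest 3.01). HET PBS 7 was highest for Rrm2 at 5.86 CPM (nearest 4.58) and lowest for Ccnd2 at 26.0 CPM (nearest 29.8), and HET PBS 5 was highest for Gins2 at 2.12 CPM (nearest 1.32). WT PBS 3 was highest for Cdk1 at 1.98 CPM (nearest 1.20) and Birc5 at 1.57 CPM (nearest 0.987).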

How the results depend on the processing

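DESeq2 left every call on the 40 genes in the 2 cisplatin comparisons as it was. With library totals, 12 replication, 5 G1 and 5 mitosis genes were higher in HET (22 in all, 0 lower) and 12, 6 and 7 in WT (25 in all, 0 lower); limma on log2(TPM + 1) gave 12, 5 and 4 in HET (21, 0 lower) and 13, 4 and 5 in WT (22, 0 lower). The sign turned with totals and TPM for Pcna in HET (0.3705, 0.4076), Mcm6 in HET (0.1323, 0.1558), Tyms in HET (0.3934, 0.3993) and WT (0.389, 0.3696) and Ccnd3 in HET (0.2626, 0.3059) and WT (0.22, 0.2585), and with TPM alone for Cdc45 in HET (0.0045) and Mcm6 in WT (0.0185). This list holds only genes called in the main fit or in the alternative. Genes called in neither fit turned sign 148 times over all alternatives, in 19 genes, and 16 of these times were with library totals. Library totals and TPM scale libraries differently. Among the animals numbered in the low 600s, HET had 0 lower (0 in replication and G1) and 1 higher in G1, and WT had 1 lower (0 in replication) and 1 higher in mitosis. Without the 5 libraries in doubt, HET had 6 higher (1 in G1, 0 in mitosis), 0 lower in replication and 1 lower in mitosis, and WT had 1 lower in mitosis. The compared groups alone, voom, and leaving out the 2 cisplatin libraries nearest to PBS (chosen after seeing the data) each gave 1 lower in mitosis in WT, and 1 lower in HET, in replication, with 0 in G1. No filter and library number as a covariate gave 1 lower in HET (1 in replication, 0 in G1) and 1 higher in mitosis; RLE scaling gave 1 higher in mitosis, and the stricter filter 0 lower in G1, in HET. Leaving out 1 library gave 9 to 13 higher and 0 to 5 lower in HET (replication 5 to 6 and 0 to 2, G1 3 to 4 and 0 to 1, mitosis 1 to 3 and 0 to 2) and 10 to 14 and 2 to 3 in WT (replication 6 to 8 and 1, G1 2 and 1, mitosis 2 to 4 and 0 to 1), and 0 for each genotype comparison. The replication minus mitosis difference ranged over 0.1737 to 0.3908 in HET and 0.1627 to 0.281 in WT, and was 0.9804 in HET and 0.9823 in WT with medians in place of means. The split of all genes is given above for the main fit and for library totals. It is also given without the 5 libraries in doubt and for the low 600s. For the other alternatives it is not given here, so their counts are not read as more or less than that split. The cause of these moves was not tested. No paired analysis was possible because the labels give no replicate numbers shared between groups.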
